A study of Mus musculus with 6 samples.

Results

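In cultured mouse islets, 9 genes of peptide-cleaving enzymes and of the angiotensin system were followed: Enpep, Anpep, Lnpep, Ace, Agt, Agtr1a, Mme, Dpp4 and Ren1. They were picked by gene name out of 48397 genes in the count tables. The choice was made with results of the prolactin comparison known, so their differences between conditions and the calls on them are given as a description and are not independent evidence. Pancreatic islets of wild-type C57B6 mice, labelled as mixed cells, recovered overnight and were then cultured for 24 h. Control islets received DMSO, a solvent, and treated islets prolactin (recombinant, mouse) at 500 ng/mL, the pituitary hormone to which beta cells respond in pregnancy. Polyadenylated RNA was sequenced in 3 libraries per condition. Whether replicates are separate animals or cultures is not stated in the labels, and each p-value therefore measures the spread among these libraries alone, which may be technical.

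Angiotensinogen, the product of Agt, is cut by renin (Ren1) to angiotensin I, and angiotensin-converting enzyme (Ace) shortens this to angiotensin II, which acts through the type 1 receptor (Agtr1a). Membrane aminopeptidases then trim the hormone from its amino end: aminopeptidase A (Enpep) makes angiotensin III, and aminopeptidase N (Anpep) makes angiotensin IV, which binds the insulin-regulated aminopeptidase (Lnpep). Neprilysin (Mme) and dipeptidyl peptidase 4 (Dpp4) are further cell-surface peptidases, and Dpp4 is best known for inactivating the incretin hormones that raise insulin secretion. A local angiotensin system has been described in the pancreas.

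The libraries held 230833584 to 530296257 counted reads. Prolactin replicates 2 and 3 were the most alike pair by the squared difference of their counts, taken as the median over genes. It was 3.17 times what sampling alone gives, against 7.33 to 17.9 times in the other pairs of one condition. The measure rises with read depth, which was highest in control replicate 1. Prolactin replicates 2 and 3 were therefore kept as separate libraries and also tested as one. Islet hormone transcripts were abundant in every library, with 8 beta-cell markers summing to between 114627 and 141165 CPM (counts scaled to a common library total). Several of these peptidases are abundant on kidney and gut epithelium, and markers of those tissues were low in sum: 6 enterocyte markers summed to 1.89 to 2.70 CPM, with Sis, Alpi and Apoa4 at 0 in some libraries, and 6 kidney markers to 0.795 to 1.63 CPM, with Aqp2 and Umod at 0 in some. Others of these markers were detected in every library, among them Slc5a1 (333 reads or more), Lct (113 or more) and Nphs1 (112 or more). Acinar markers ran from 507.7 CPM in control replicate 2 to 2658 CPM in control replicate 3, a spread within one condition.

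Enpep was the 1 gene of the 8 tested that passed, and it fell. Aminopeptidase A removes acidic residues from the amino end of peptides, among them the first residue of angiotensin II. Control replicates 1, 2 and 3 held 76.4, 72.5 and 67.0 CPM of Enpep, and prolactin replicates 1, 2 and 3 held 57.2, 50.1 and 49.5 CPM. Every prolactin library lay below every control library, and the highest prolactin library was replicate 1. The mean went from 72.0 ± 4.7 to 52.3 ± 4.3 CPM (SD, n = 3 per condition), a log2 change of -0.46 (SE 0.073) or 0.726-fold, with an adjusted p of 0.0309 in edgeR's quasi-likelihood test over all genes. Of the 8 tested genes 1 was lower and 0 were higher at an adjusted p under 0.05, where 0.757% of the 23924 genes tested were called, 0.104% as lower and 0.652% as higher. Unadjusted p-values under 0.05 put 2 of the 8 higher and 2 lower, against 1861 higher and 1599 lower of the 23924 genes tested. DESeq2, which gave Mme no adjusted p, called 0 of these genes higher and 1 lower, against 776 and 303 of 18913 genes. With limma-voom 0 of the 8 were higher and 1 lower, against 156 and 21 of the 23924. In the authors' deposited table Enpep has a log2 fold change of -0.46 with an adjusted p of 4.91e-06.

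The Enpep difference kept its sign in each of the 15 alternative fits, with log2 changes from -0.53 to -0.42, while its call rested on single libraries. Leaving out control replicate 1 gave an adjusted p of 0.0661 and leaving out control replicate 2 one of 0.104, both above the threshold of 0.05. It was also above it when prolactin replicate 2 (0.189) or prolactin replicate 3 (0.193) was dropped. It was 0.0236 in the fit that dropped control replicate 3 and 0.0264 in the one that dropped prolactin replicate 1. With prolactin replicates 2 and 3 summed into 1 library it was 0.197. Without a filter on low counts the adjusted p was 0.00046, and it ranged over all alternatives from 4.91e-06 with DESeq2 to 0.197.

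**Figure D1:**
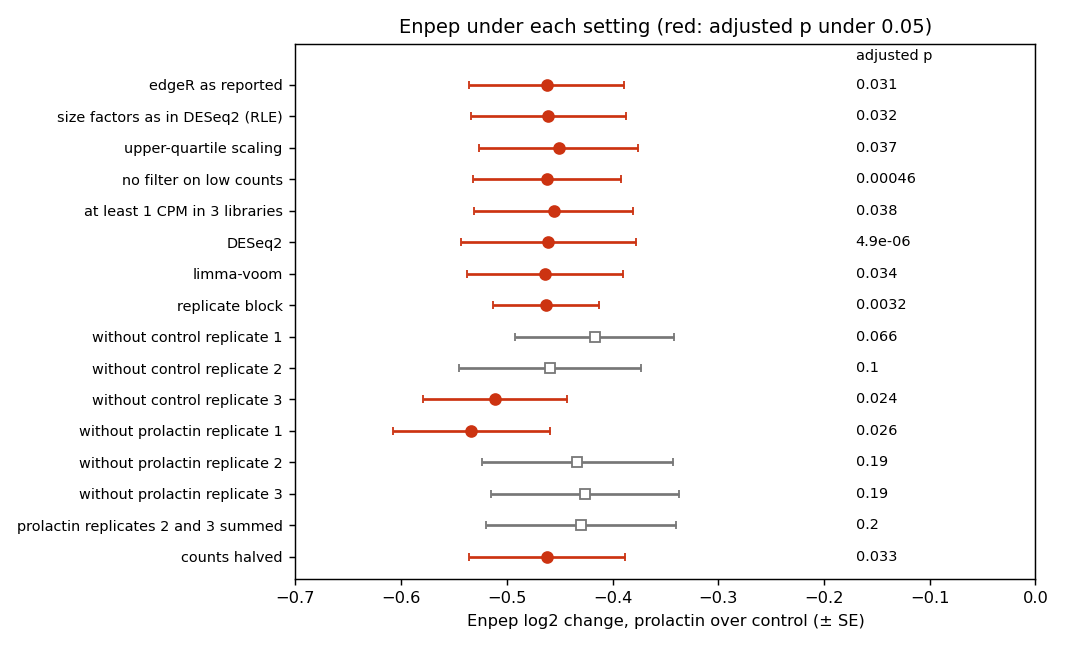
Log2 change of Enpep, prolactin over control, with its SE on the x axis for the reported fit and each alternative (rows), with the adjusted p at the right. All values lie between -0.53 and -0.42; filled red points have an adjusted p under 0.05 and open grey squares do not.

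The Enpep locus lies on chromosome 3 (129269175 to 129332720, minus strand, mm10), and in the gene models counted here its exons overlap those of no other gene. The 250 bases before the transcription start are shown for Enpep, for the angiotensin precursor gene Agt and, as a promoter of a different base composition, for Anpep, the next enzyme in the trimming of angiotensin. They are RefSeq sequences on GRCm38.p6, written 5′ to 3′ on the strand of each gene, at chr3:129332750-129332999 (minus), chr8:124569707-124569956 (minus) and chr7:79848211-79848460 (minus). For Anpep the gene model used for counting reaches farther upstream than this RefSeq start. Capitals mark TTCNNNGAA, the letters of a STAT site, and TATAAA or its reverse complement.
Enpep: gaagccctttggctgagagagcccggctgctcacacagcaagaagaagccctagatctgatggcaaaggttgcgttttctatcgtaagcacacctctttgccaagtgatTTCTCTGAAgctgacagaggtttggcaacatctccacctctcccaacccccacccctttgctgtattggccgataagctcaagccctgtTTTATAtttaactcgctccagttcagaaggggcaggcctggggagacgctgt
Agt: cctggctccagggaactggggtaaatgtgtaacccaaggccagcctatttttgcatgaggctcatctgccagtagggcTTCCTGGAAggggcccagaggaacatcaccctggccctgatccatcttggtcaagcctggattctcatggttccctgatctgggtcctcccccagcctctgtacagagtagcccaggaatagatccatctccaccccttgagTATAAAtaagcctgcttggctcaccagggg
Anpep: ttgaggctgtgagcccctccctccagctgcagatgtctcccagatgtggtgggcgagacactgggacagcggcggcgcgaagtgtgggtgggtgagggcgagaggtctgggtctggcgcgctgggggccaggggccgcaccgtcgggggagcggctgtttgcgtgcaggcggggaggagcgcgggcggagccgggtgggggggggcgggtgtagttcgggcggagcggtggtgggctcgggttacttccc

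RefSeq promoter windows were found for 8 of the 9 genes, 11 windows in all, because Ace and Mme have several starts; Agtr1a had none. The motif TTCNNNGAA, which reads the same on both strands, was found in 3 of the 11 windows and in 7.02% of all 32851 windows of that length. Enpep holds it as TTCTCTGAA from 141 bases before the start, and Agt as TTCCTGGAA from 172 bases before it. The most upstream of the Mme windows holds it as TTCCATGAA from 166 bases before its RefSeq start. For Mme the gene model used for counting begins farther upstream than these windows, at 63241537. TATAAA, searched on both strands, was in 5 of the 11 windows, those of Enpep, Agt, Dpp4, Ren1 and the upstream start of Ace, and in 12.4% of all windows. It begins 52 bases before the start in Enpep and 30 in Agt, and no match of one motif overlaps a match of the other in these 11 windows. CpG content varied widely: Anpep has 23 CpG and Lnpep 25, against 6 in Enpep, 4 in Dpp4 and 0 in Agt, with a median of 6 over all windows. These matches describe letters in the reference, not binding in these islets.

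Anpep encodes aminopeptidase N, a broad-range enzyme that removes neutral residues. It is on chromosome 7 (79821803 to 79861059, minus strand). Control replicates 1, 2 and 3 gave 60.4, 72.7 and 76.4 CPM, against 74.3, 83.6 and 89.7 CPM for prolactin replicates 1, 2 and 3. The groups overlapped, since prolactin replicate 1 lay below control replicate 3. The means of 69.9 ± 8.4 and 82.5 ± 7.8 CPM gave a log2 difference of 0.24 (SE 0.097, adjusted p = 0.303), of opposite sign to that of Enpep. With control replicate 1 left out the Anpep difference was 0.15.

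Lnpep, on chromosome 17 (17527723 to 17624489, minus strand), encodes the insulin-regulated aminopeptidase, which travels with glucose transporter vesicles and cleaves oxytocin and vasopressin. It showed 63.0, 69.9 and 65.3 CPM in control and 62.9, 71.1 and 70.3 CPM in prolactin, in replicate order. The lowest and the highest of the 6 libraries both came from prolactin, and the log2 change was 0.04 (SE 0.065, adjusted p = 0.809). Relative to its mean, Lnpep varied least of the 3 aminopeptidases, with a coefficient of variation of 5.26% in control and 6.63% in prolactin, against 6.54% and 8.14% for Enpep.

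**Figure D2:**
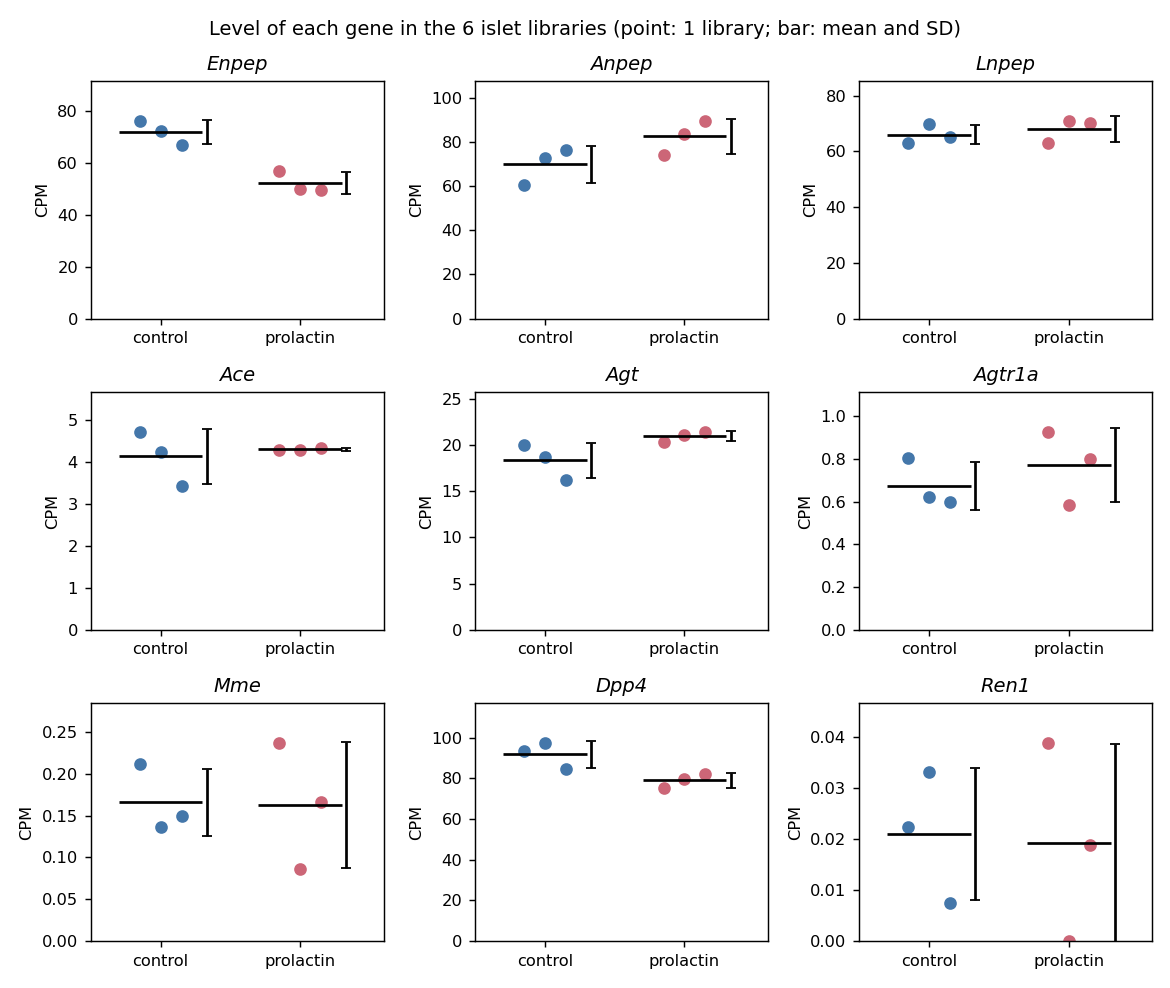
CPM (y axis, linear from 0) of the 9 genes in each control and prolactin library, 1 point per library with the mean and SD of 3. The Enpep points of the 2 conditions do not overlap (67.0 CPM or more in control, 57.2 or less in prolactin), nor do those of Agt and Dpp4, while those of the other 6 genes do.

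Agt, on chromosome 8 (124556534 to 124569706, minus strand), encodes angiotensinogen, the precursor of all angiotensins. Its level was 19.96, 18.7 and 16.3 CPM in the control libraries, in replicate order, and 20.3, 21.1 and 21.4 CPM in those with prolactin. All prolactin libraries lay above all control libraries, and the nearest pair was control replicate 1 and prolactin replicate 1. The means of 18.3 ± 1.9 and 21.0 ± 0.6 CPM differed by 0.19 on the log2 scale (SE 0.078, adjusted p = 0.303), which did not pass, and by 0.11 with control replicate 3 left out. Control replicate 3, the lowest library for Agt, was also the lowest for several marker lists. On average alpha-cell markers (6 genes) were 0.36 below their own log2 mean there and fibroblast markers (10 genes) 0.55 below. Pericyte and smooth-muscle markers (10 genes) were 0.34 below and Schwann-cell markers (6 genes) 0.46. Mesothelial markers (5 genes, 2 of them under 0.1 CPM in every library) averaged 0.53 below. Their summed CPM, by contrast, was highest in control replicate 3, at 85.1 CPM. Whether these cells had a part in the Agt values was not tested; in RNA from whole islets, fewer cells of a type and less RNA per cell cannot be told apart.

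The enzymes and the receptor that make angiotensin II and respond to it were at the low end of the set per kb of exon. Renin, from Ren1 on chromosome 1 (133350510 to 133360325, plus strand), had 12, 9 and 2 reads in the controls, in replicate order, and 9, 0 and 5 with prolactin, too few for the expression filter. That is 23 reads in control and 14 in prolactin, at or under 0.0388 CPM in every library, so a difference in Ren1 was not detectable at this depth.

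Ace, on chromosome 11 (105967945 to 105989964, plus strand), gave 4.72, 4.25 and 3.43 CPM in control and 4.29, 4.28 and 4.34 CPM in prolactin, in replicate order. The 3 prolactin libraries sat inside the control range, with a SD of 0.032 CPM against 0.65 CPM in control. The log2 change was 0.06 (SE 0.12, adjusted p = 0.871), and it became -0.06 without control replicate 3. The locus Gm11651 on the opposite strand shares 295 of the 5287 exon bases of Ace, and reads counted with no regard to strand cannot be assigned to either. Endothelial cells are a known source of the enzyme. In replicate order, 10 endothelial markers summed to 284.7, 274.5 and 307.8 CPM in control and 322.8, 320.0 and 327.8 CPM in prolactin. Control replicate 3 had the highest of the control sums and the lowest Ace value. The part of endothelial cells in the Ace values was not tested.

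Agtr1a, on chromosome 13 (30336441 to 30382867, plus strand), encodes the main type 1 angiotensin receptor of the mouse. In replicate order the controls had 0.804, 0.622 and 0.598 CPM and the prolactin libraries 0.928, 0.585 and 0.801 CPM. The groups overlapped and both the lowest and the highest library were from prolactin (log2 change 0.19, SE 0.21, adjusted p = 0.734). Its log2 change was 0.03 with prolactin replicate 1 left out, 0.35 with prolactin replicate 2 left out, and 0.34 and 0.10 with control replicates 1 and 3 left out. Its relatives Agtr1b and Agtr2 did not reach the expression filter, and the highest of the 6 libraries had 0.0151 CPM of Agtr1b and 0.0242 CPM of Agtr2.

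Dpp4, on chromosome 2 (62330073 to 62412231, minus strand), encodes the peptidase that removes an amino-terminal dipeptide from incretins. Control replicates 1, 2 and 3 had 93.6, 97.5 and 84.4 CPM and prolactin replicates 1, 2 and 3 had 75.2, 79.7 and 82.2 CPM. The prolactin libraries were all lower than the control ones and control replicate 3 was the nearest to them. The means were 91.8 ± 6.7 and 79.0 ± 3.6 CPM, for a log2 difference of -0.22 (SE 0.066, adjusted p = 0.185). With control replicate 3 left out Dpp4 passed, at an adjusted p of 0.0464 in edgeR's test. That fit called 234 genes lower over all genes, against 25 with all libraries. Leaving out any other single library gave Dpp4 adjusted p-values from 0.28 to 0.487, and summing prolactin replicates 2 and 3 gave 0.467. The exons of Dpp4 share 232 bases with Gm13561 on the opposite strand. In the authors' deposited table the adjusted p of Dpp4 is 0.0894.

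Mme, on chromosome 3 (63241537 to 63386030, plus strand), encodes neprilysin, which degrades enkephalins, tachykinins and natriuretic peptides. It was scarcely detected, with 0.212, 0.136 and 0.149 CPM in control and 0.237, 0.0860 and 0.166 CPM in prolactin, in replicate order. These rest on 20 to 114 reads per library. The log2 change of -0.05 (SE 0.36, adjusted p = 0.968) turned to 0.19 without control replicate 1 and to 0.26 without prolactin replicate 2. Among all 8 tested genes the libraries of the conditions did not overlap for 3 (Enpep, Agt and Dpp4), and this held for 21.6% of all tested genes. The 8 genes had a median log2 change of 0.05, with 5 of 8 positive, against a median of 0.00 over all genes tested.

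Levels of different genes were compared per kb of exon. In control the order was Anpep (16.9 ± 2.0 CPM per kb), Enpep (15.3 ± 1.0), Dpp4 (14.5 ± 1.1), Lnpep (12.8 ± 0.7) and Agt (9.69 ± 1.00), and then, well below, Ace (0.781 ± 0.124), Agtr1a (0.274 ± 0.046), Mme (0.0144 ± 0.0035) and Ren1 (0.0127 ± 0.0078). From Anpep to Lnpep the library ranges of each neighbouring pair overlapped, as did those of Mme and Ren1, so the ranges do not separate these neighbours. Within each control library Dpp4 lay above Lnpep (14.8, 15.4 and 13.4 against 12.2, 13.5 and 12.6 CPM per kb, in replicate order). The order within the other overlapping pairs changed between control libraries. Lnpep and Agt, Agt and Ace, Ace and Agtr1a, and Agtr1a and Mme did not overlap.

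In prolactin the order of these levels per kb was Anpep (19.96 ± 1.9 CPM per kb), Lnpep (13.1 ± 0.9), Dpp4 (12.5 ± 0.6), Enpep (11.1 ± 0.9) and Agt (11.1 ± 0.3), followed by Ace, Agtr1a, Mme and Ren1 as in control. Anpep was then apart from the next gene, and Lnpep, Dpp4, Enpep and Agt each overlapped their neighbour. Within single libraries the ratio of Anpep to Enpep per length was 0.900, 1.14 and 1.30 for the controls, in replicate order, and 1.48, 1.90 and 2.06 for prolactin. That ratio does not depend on how libraries are scaled, and its 2 groups did not overlap. The ratio of Agt to Enpep was 0.650, 0.643 and 0.603 for the controls and 0.886, 1.05 and 1.08 for prolactin. For Lnpep to Enpep the values were 0.749, 0.875 and 0.885 against 0.9996, 1.29 and 1.29, which did not overlap, although Lnpep itself overlapped between conditions. For Dpp4 to Enpep they were 0.912, 1.00 and 0.937 against 0.980, 1.18 and 1.24. These overlapped, since prolactin replicate 1 lay below control replicate 2. Each of these ratios divides by Enpep, so the lower Enpep level with prolactin enters all of them and they are not separate results.

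**Figure D3:**
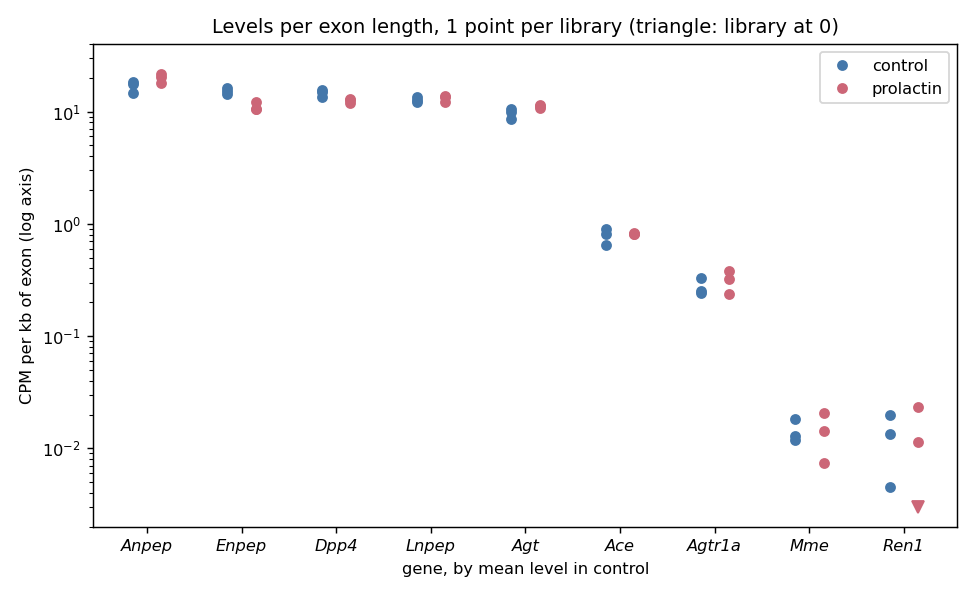
CPM per kb of exon (log y axis) of the 9 genes, ordered by their mean in control, with 1 point per library and a triangle for the prolactin library without Ren1 reads. Anpep, Enpep, Dpp4, Lnpep and Agt lie between 8.60 and 21.7 CPM per kb, and the other 4 genes lie below 0.9.

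The 9 genes did not share one profile over the libraries. Anpep was lowest in control replicate 1, at 0.32 below its own log2 mean, where Enpep was highest, at 0.32 above. Beta-cell markers (8 genes) were also lowest in control replicate 1, 0.17 below their mean, and in prolactin replicate 1, 0.16 below. Delta-cell and PP-cell markers (5 genes, of which Sst fell) summed to 8015 to 8479 CPM in control and 5654 to 7016 CPM in prolactin, so that, like Enpep, their sum was lower in each prolactin library and highest of the 3 in prolactin replicate 1. That sum was carried by Ppy (3394 ± 232 and 2039 ± 486 CPM, adjusted p = 0.0708 in edgeR's test) and Sst (2401 ± 134 and 1821 ± 31 CPM, adjusted p = 0.0488), while Hhex, Rbp4 and Pyy overlapped between conditions, at log2 changes of -0.02, 0.09 and -0.09. Fibroblast and stellate-cell markers (10 genes) summed to 284.9 to 432.4 CPM in control and 621.3 to 773.8 CPM in prolactin. Most of that sum came from Col1a1 (186.5 and 338.6 CPM on average), Col1a2 (80.6 and 152.5) and Col3a1 (80.4 and 137.1). Of the 10 genes 2 passed in edgeR's test, Col1a1 and Col1a2. Dcn, Lum and Clec3b overlapped between conditions, and the others were higher in every prolactin library. Pericyte and smooth-muscle markers (10 genes) summed to 136.0 to 177.2 CPM in control and 187.2 to 216.0 CPM in prolactin. The part of the cell types of these lists in the values of Enpep, Agt or Dpp4 was not tested.

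**Figure D4:**
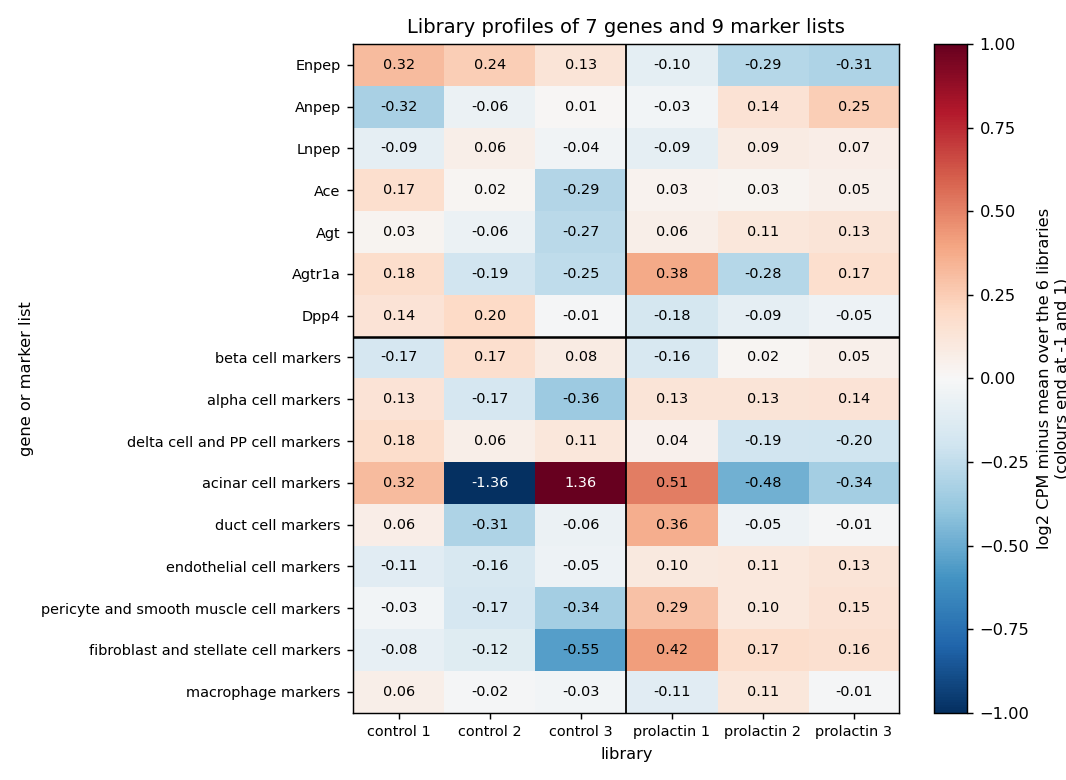
Heat map of log2 CPM minus the mean over the 6 libraries (colour and printed value) for 7 of the genes and for the mean of 9 marker lists (rows) in each library (columns). Enpep is positive in the 3 control and negative in the 3 prolactin libraries, Anpep is lowest in control replicate 1 (-0.32), and acinar markers run from -1.36 to 1.36 within control.

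Arxes2, Ccdc107 and Trim21 had the profiles most like that of Enpep. The measure was the root mean square difference of centred log2 CPM over the 6 libraries, among 10521 named protein genes averaging 5 CPM or more. It was 0.071 for Ccdc107, 0.073 for Arxes2 and 0.079 for Trim21, which encodes an antibody-binding ubiquitin ligase, against a median of 0.256 for all candidates. Trim21 went from 20.03 ± 0.82 to 14.4 ± 0.2 CPM, Arxes2 from 29.2 ± 2.3 to 21.6 ± 0.3 CPM, and Ccdc107 from 11.5 ± 0.9 to 9.07 ± 0.59 CPM. Trim21 (adjusted p = 0.00865 in edgeR's test) and Arxes2 (0.0275) passed, and Ccdc107 (0.11) did not. These genes were picked for likeness to Enpep in the same 6 libraries, so their lower level with prolactin follows from the choice.

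The rest of the renin-angiotensin system showed no call in edgeR's test: of 22 further genes 14 were tested, 0 were higher and 0 lower (unadjusted p under 0.05 in 2 higher and 3 lower genes; DESeq2 and limma-voom called 0). Their median log2 change was -0.06, with 6 of 14 positive. The 2 with the smallest p-values were neurolysin Nln (18.5 ± 1.0 and 16.1 ± 0.3 CPM, log2 change -0.20, SE 0.061, adjusted p = 0.175) and Mas1, a G protein-coupled receptor gene (1.06 ± 0.22 and 1.52 ± 0.14 CPM, log2 change 0.51, SE 0.17, adjusted p = 0.222). The 8 genes left untested, Agtr1b and Agtr2 among them, reached at most 0.0354 CPM in any library. For this and each later list, the share over all 23924 genes tested was 0.652% called higher and 0.104% lower in edgeR's test. The kallikrein gene Klk1 ran from 11.1 CPM in control replicate 2 to 45.5 CPM in control replicate 3, the libraries in which acinar markers were lowest and highest; the part of acinar cells in it was not tested.

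Among the other M1 aminopeptidases, the zinc enzyme family of Enpep, Anpep and Lnpep, 8 of 8 were tested and 0 were higher or lower in edgeR's test (unadjusted p under 0.05 in 1 lower gene; DESeq2 and limma-voom called 0). The median log2 change was 0.01. Erap1, which trims peptides for MHC class I molecules in the endoplasmic reticulum, had 164.5 ± 17.2 CPM in control and 142.5 ± 2.4 CPM in prolactin (log2 change -0.21, SE 0.077, adjusted p = 0.268). With control replicate 3 left out Erap1 passed, at an adjusted p of 0.0277 in edgeR's test. Over all genes that fit called 234 lower, against 25 with all libraries. Leaving out any other single library gave Erap1 adjusted p-values from 0.419 to 0.574. Trhde, which degrades thyrotropin-releasing hormone, was under 0.11 CPM in each library (log2 change 0.75, SE 0.48, adjusted p = 0.524; log2 change 0.31 with prolactin replicate 3 left out). Per length Erap1 stood above the 3 membrane aminopeptidases, at 41.0 CPM per kb in control, and the cytosolic Npepps at 16.6 CPM per kb was near Anpep.

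Neprilysin's relatives gave 0 higher and 0 lower of 5 tested genes in edgeR's test (unadjusted p under 0.05 in 0 genes; DESeq2 and limma-voom called 0), the median log2 change being 0.07. Ece1, the endothelin-converting enzyme, was abundant, averaging 519.1 ± 49.4 CPM without prolactin and 574.0 ± 27.9 CPM with it (log2 change 0.15, SE 0.081, adjusted p = 0.461; log2 change 0.07 with control replicate 1 left out). Ecel1, a relative of Ece1 known from motor neurons, had 0.946 ± 0.541 and 1.5 ± 0.4 CPM (log2 change 0.66, SE 0.43, adjusted p = 0.538; log2 change 0.26 with control replicate 3 left out).

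Of 10 tested genes for dipeptidyl and prolyl peptidases other than Dpp4, 1 rose, 0 fell and 9 did not pass (unadjusted p under 0.05 in 1 higher and 3 lower genes; DESeq2 called 1 gene higher and 1 lower, limma-voom 1 and 0); the median log2 change was 0.05. The gene that rose was Prepl on chromosome 17 (85063477 to 85090267), a prolyl endopeptidase-like hydrolase. Control replicates 1, 2 and 3 had 170.4, 168.2 and 155.0 CPM of it, and with prolactin the corresponding values were 240.5, 240.5 and 247.0 CPM. The 2 groups were far apart beside their spread, with means of 164.5 ± 8.3 and 242.7 ± 3.8 CPM (log2 change 0.56, SE 0.058, edgeR adjusted p = 0.00331). Prepl passed in each of the 15 alternatives, with adjusted p up to 0.0419. Its exons share 608 bases, 15.9% of their length, with those of Slc3a1 on the opposite strand, and reads there cannot be told apart.

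Of 19 other tested aminopeptidases and dipeptidases 0 were higher and 0 lower in edgeR's test (unadjusted p under 0.05 in 1 higher and 2 lower genes; DESeq2 and limma-voom called 0), and the median log2 change was -0.05. The smallest p-values belonged to Dpep1 (1.02 ± 0.44 and 1.95 ± 0.22 CPM, log2 change 0.92, SE 0.29, adjusted p = 0.203), a membrane dipeptidase, and Xpnpep2 (under 0.11 CPM in each library, log2 change -1.21, SE 0.42, adjusted p = 0.238). Dpep1 passed without a filter on low counts (adjusted p = 0.0335), and its log2 change was 0.61 with control replicate 3 left out.

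Peptide ligands and receptors on which such enzymes act, or which stand beside them, gave 1 higher and 0 lower of 19 tested genes (unadjusted p under 0.05 in 5 higher and 2 lower genes; DESeq2 called 4 higher and 0 lower, limma-voom 1 and 0), and the median log2 change was 0.12. Edn3, on chromosome 2 (174760619 to 174784042), encodes endothelin 3, one of the peptides released by endothelin-converting enzymes, and rose. Its libraries read 28.7, 24.9 and 20.8 CPM in control and 39.2, 39.7 and 40.3 CPM in prolactin, in replicate order. The prolactin libraries were closely grouped above all controls, and the means of 24.8 ± 3.9 and 39.8 ± 0.6 CPM differed by 0.68 on the log2 scale (SE 0.10, adjusted p = 0.0238 in edgeR's test). Edn3 lost the call when control replicate 2 was left out, at an adjusted p of 0.0975, and when prolactin replicate 1, 2 or 3 was, at adjusted p-values of 0.0635, 0.128 and 0.125. Summing prolactin replicates 2 and 3 gave 0.13. Over all 6 lists, each gene counted once, 2 of 74 tested genes rose and 0 fell in edgeR's test. Of the 23924 genes tested, 0.652% were called higher and 0.104% lower. An unadjusted p below 0.05 was found for 9 higher and 11 lower genes of the 74, against 1861 and 1599 of the 23924. DESeq2 called 5 list genes higher and 1 lower, against 776 and 303 of 18913 genes. With limma-voom 2 and 0 list genes were called, against 156 and 21 of the 23924.

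**Figure D5:**
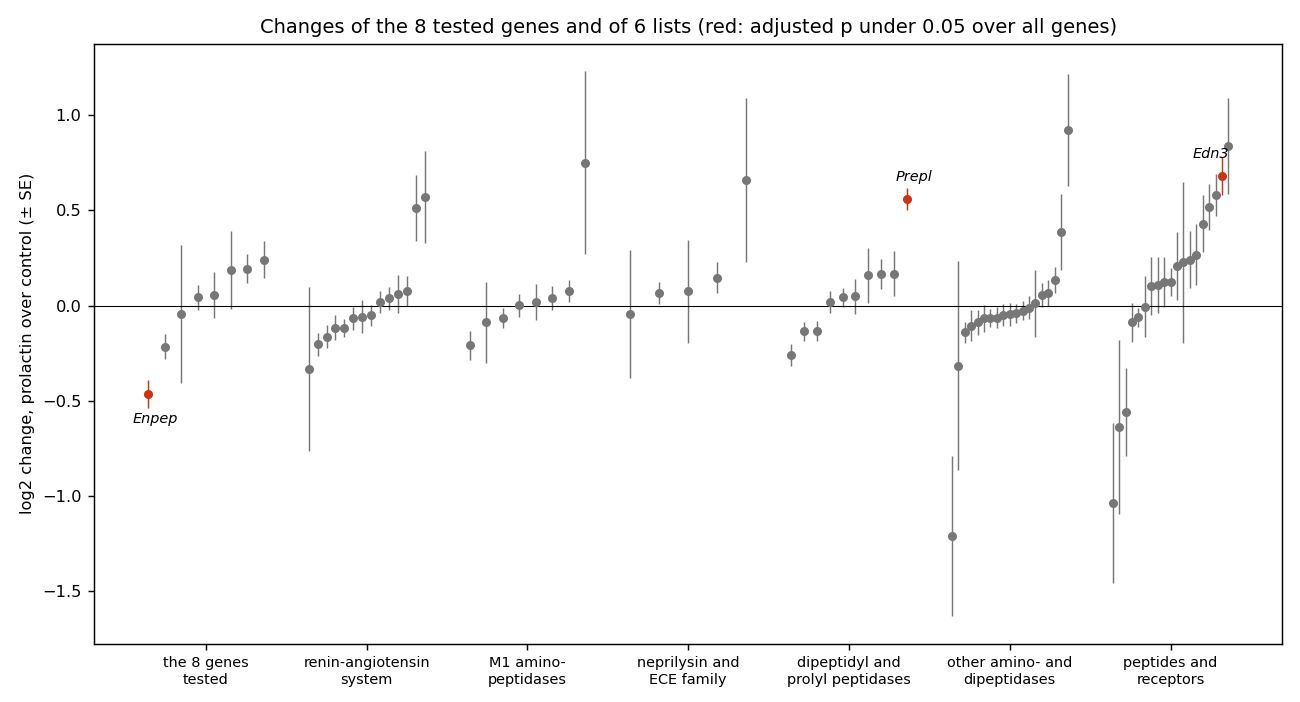
Log2 change, prolactin over control, with SE (y axis) of the 8 tested genes of the set and of the tested genes in 6 lists of related peptidases, peptides and receptors (x axis, sorted within a list); Prep stands in 2 lists. Red marks an adjusted p under 0.05 over all genes, which Enpep (-0.46), Prepl (0.56) and Edn3 (0.68) reached.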

How the data were processed

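Islet RNA with polyA tails gave 3 control and 3 prolactin libraries. The deposited counts are whole reads per gene name, counted by featureCounts 2.0.3 on GENCODE vM10 models, per the file headers. Processing notes by the submitters list mm10, SAMtools 1.21, Subread 2.1.0 and DESeq2. An aligner was not given in the sources used here, and the command line kept in the files sets no strand and may count mates of a pair separately, so counts can overstate independent fragments. A second deposited table holds, from the authors, log2 fold changes and their standard errors, a test statistic (score), p-values and each gene's mean signal.

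The conditions were compared in edgeR 4.0.16 (R 4.3.3) with TMM scaling and its expression filter (counts of 10 at least, 15 in total), leaving 23924 genes out of 48397. The quasi-likelihood model held condition alone, its test was two-sided, and Benjamini-Hochberg adjustment ran over all genes tested, with a threshold of 0.05. CPM use TMM-scaled totals; CPM per kb divide by the exon length that the count tables give. SE was taken from the test statistic. Alternatives were other scalings and filters, DESeq2 1.42.0, limma-voom (limma 3.58.1), a block for the replicate number, each library left out in turn, prolactin replicates 2 and 3 summed, and halved counts. The procedure was tested on simulated data.

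The 9 genes and the lists were chosen with earlier results of these data known. The naming rule took the 9 genes, the genes of each list past the threshold (up to 4, or the 2 with the smallest p-values where none passed) and the 3 genes nearest in profile to a gene past the threshold; other genes named, such as Klk1, Agtr1b, Agtr2 and Npepps, were chosen after their values were seen. Of 87 list genes 2 were matched through a RefSeq synonym. Promoter sequences are from RefSeq (GRCm38.p6). A gene of the lists is not reported here by name.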

Additional observations from a re-analysis of the deposited data

How the results depend on the processing

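Over all genes, the reported fit found 156 higher and 25 lower. The higher count became 470 without a filter on low counts, 776 with DESeq2 and 42 with prolactin replicates 2 and 3 summed, and ranged from 39 to 342 when 1 library was left out. The lower count became 127 without a filter, 46 with at least 1 CPM in 3 libraries, 303 with DESeq2 and 2 with prolactin replicates 2 and 3 summed, and ranged from 1 (without prolactin replicate 2) to 234 (without control replicate 3). Among the 9 genes, the lower count was 0 with prolactin replicates 2 and 3 summed and from 0 to 2 without 1 library, and the higher count was 0 in those fits. In the 6 lists, the higher count was 6 without a filter, 5 with DESeq2, 1 with prolactin replicates 2 and 3 summed and from 1 to 3 without 1 library; the lower count was 1 with DESeq2 and from 0 to 2 without 1 library. Leaving out 1 library gave Ace log2 changes from -0.0606 to 0.1655 and Mme from -0.4082 to 0.2569. The sign turned for Ace without control replicate 3 and for Mme without control replicate 1 (0.1921), without prolactin replicate 2 (0.2569) and with prolactin replicates 2 and 3 summed (0.083). Fewer samples enter the fits without a library; the cause of the other differences was not tested. With the replicate number as a block, 464 genes were higher and 134 lower, with 1 of the 9 genes higher (Anpep, adjusted p = 0.0412) and 5 list genes higher and 1 lower. The labels do not say what a number stands for, and the deviations of same-numbered libraries correlated at 0.191, 0.112 and -0.022 over genes for numbers 1, 2 and 3, so the numbers were not taken to pair the samples; the libraries numbered 3 did not correlate best with each other. For Lnpep, leaving out 1 library gave log2 changes from 0.01 to 0.10. Levels per length moved by less than 1 SD without TMM factors. Mme and Ren1 are limited by depth, at 114 reads or fewer per library.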
